A study of Mus musculus with 6 samples.

Results

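Oxidative phosphorylation was followed here through 36 nuclear genes for subunits of respiratory complexes I, II, III and V, without cytochrome c oxidase. The genes were named one by one from textbook membership of the complexes, and each was read from its brightest probe set over the 6 arrays. They make up 36 of the 18193 genes measured: 20 belong to complex I, 4 to complex II, 7 to complex III and 5 to complex V. Values come from whole hearts of 3 mice lacking miR-1-2 and 3 wild-type mice, all at postnatal day 10, with 1 array per mouse. miR-1-2 is a gene for miR-1, a microRNA of cardiac and skeletal muscle, and a paralogous gene makes the same mature microRNA. The labels give the genotypes as knockout and wild type, and they give no strain, sex, litter or deletion strategy. The deleted gene itself was not analysed here, so the genotypes rest on the labels. Every level below is a log2 expression value and every difference is knockout minus wild type on that scale.

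The respiratory chain sits in the inner mitochondrial membrane and supplies most of the ATP of the beating heart. Complex I takes electrons from NADH and complex II takes them from succinate, and both hand them to ubiquinone. Complex III passes them on to cytochrome c while moving protons across the membrane, and complex V, the ATP synthase, lets the protons flow back and makes ATP. Around birth the rodent heart moves from glycolysis towards fatty acid oxidation, and its mitochondria multiply.

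Array medians ran from 6.03 to 6.11, and 3 arrays per group set the precision of what follows. Of 10 cardiomyocyte markers 6 were higher in knockout and 0 passed, with a mean level of 13.62, 13.69 and 13.45 in knockout and 13.69, 13.59 and 13.68 in wild type. The cardiac myosin gene Myh6 lay between 14.31 and 14.40 in knockout and between 14.32 and 14.33 in wild type. The atrial genes Nppa and Myl7 had the lowest differences, -0.45 and -0.39, and both were lowest in knockout replicate 3 (12.16 and 11.69). Actc1, cardiac actin, differed by -0.057 with groups that did not overlap. The part of these markers in the subunit values was not tested. The arrays differed in 2 ways that the labels do not give. Xist, which coats and silences an X chromosome in females, was at 7.55, 12.19 and 7.57 in knockout replicates 1, 2 and 3 and between 11.91 and 12.13 in wild type, so the sexes were not balanced. Ucp1, which uncouples respiration in brown fat, read 10.39, 6.68 and 5.28 in knockout and 9.45, 5.50 and 5.22 in wild type, which sets replicate 1 of both groups apart. Myeloid markers were lower in knockout in 8 of 8 genes, of which 0 passed, with means of 7.74, 7.70 and 7.55 in knockout and 8.10, 7.80 and 7.91 in wild type, and their part in the subunit values was not tested. In bulk tissue, fewer cells of a type and less RNA per cell cannot be told apart.

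No subunit gene of the 4 complexes passed the threshold between knockout and wild-type hearts, and in every one the values of the groups overlapped. The differences of the 36 genes lay between -0.099, for the complex III core protein gene Uqcrc1, and 0.067, for the complex II flavoprotein gene Sdha. With limma and adjustment over all genes, 0 of 36 passed, where 0% of all genes did (the members' adjusted p was 1.00 throughout). With the replicate number as a block, 0 of 36 passed against 0.0715% of all genes. At an unadjusted p under 0.05 the count was again 0 of 36, against 4.1% of all genes. For 0 of 36 did all knockout arrays lie below all wild-type arrays, against 4.28% of all genes, and for 0 of 36 did they all lie above, against 4.57%. Of the 36 genes, 13 had a higher mean in knockout, where 50.2% of all genes did, and the median difference was -0.011 against 4.8e-04 over all genes. All 36 differences were under 0.1 in size, as were 71.4% of those of all genes.

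A p that misses the threshold does not show equal levels, so the intervals matter more here. All 36 of the 95% intervals from limma included 0. Their lowest bound was -0.29 (1.22-fold lower in knockout), for the complex I subunit gene Ndufa10, and their highest was 0.24 (1.18-fold higher), for Ndufb10. The median standard error was 0.071 for the 36 genes and 0.088 for all genes. In 29 of 36 genes the standard deviation within groups was larger than the difference between them. That share was not computed over all genes, so the count does not set the subunits apart. RMA compresses differences at the ends of its scale, and the subunit values lay between 10.84 and 13.87, below the array maxima of 14.50 to 14.59. Cox6a1, a cytochrome c oxidase subunit gene outside the 36, was at 13.23 ± 0.04 in knockout and 12.72 ± 0.08 in wild type (SD, n = 3 each). It was named for its small p among the genes of complex IV and passed neither with nor without the replicate block. A gene picked from these data does not show whether the subunit values were compressed, and their compression was not tested.

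**Figure D1:**
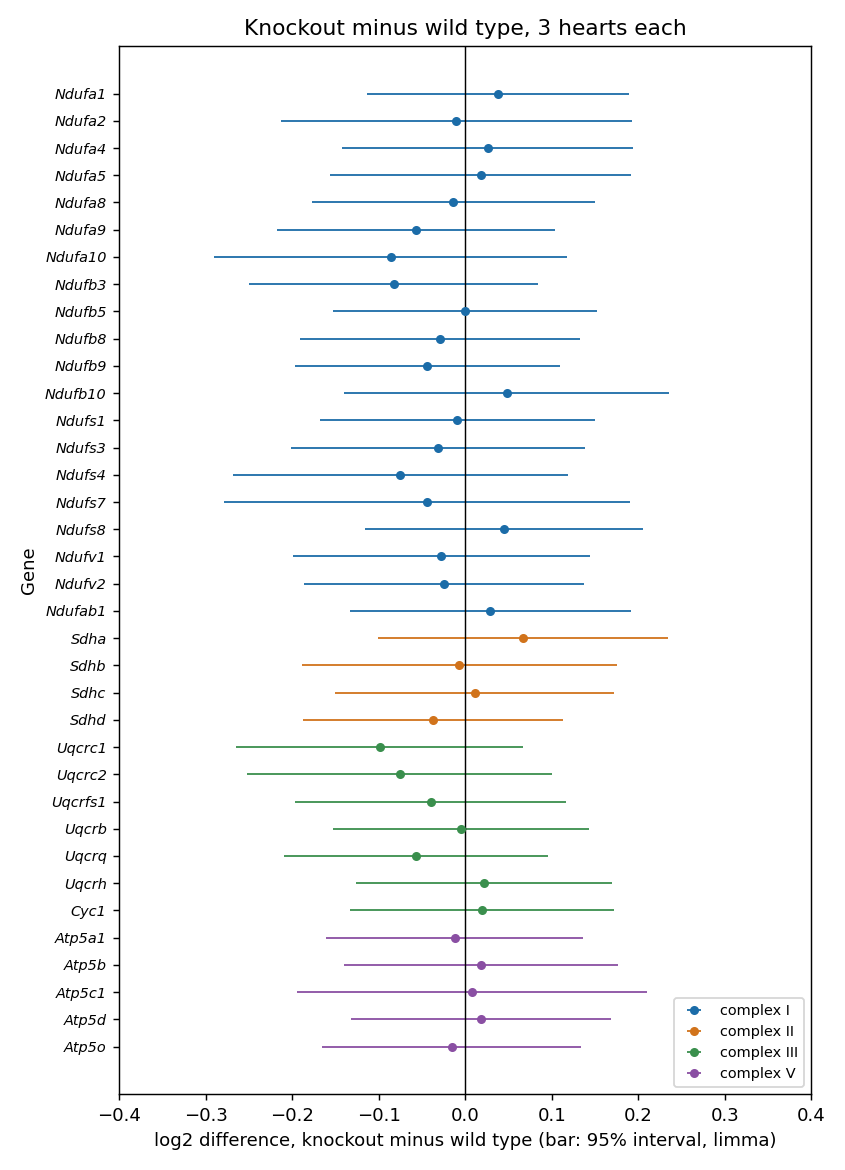
Log2 difference, knockout minus wild type, of each of the 36 subunit genes (points, x axis) with its 95% interval from limma (bars), 3 hearts per group, coloured by complex. Every interval includes 0, and the points run from -0.099 for Uqcrc1 to 0.067 for Sdha.

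**Figure D2:**
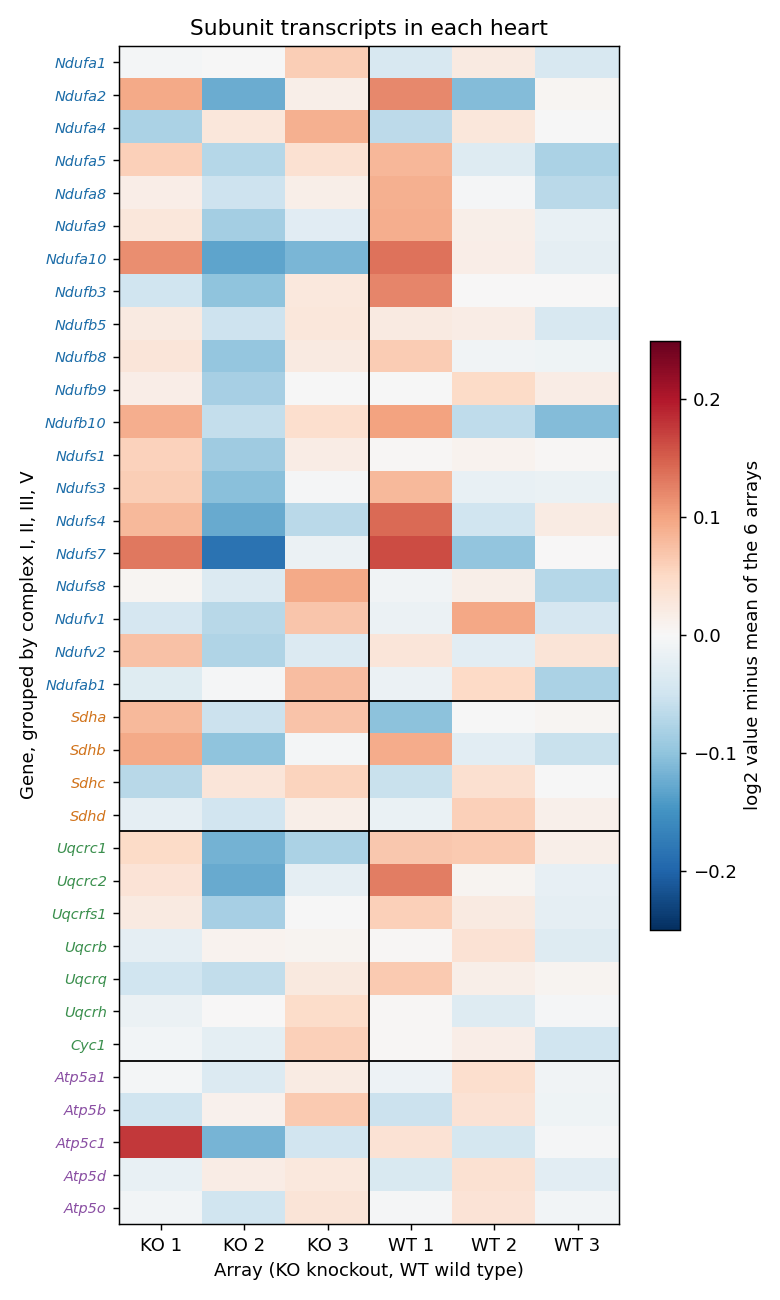
Each row is a subunit gene and each column an array, knockout 1 to 3 and then wild type 1 to 3; the colour is the log2 value minus the gene's mean over the 6 arrays. Knockout replicate 2 is blue for most genes and holds the lowest of the 6 values for 22 of 36.

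Complex I is the main entry point of the chain, and its 20 genes had a median difference of -0.019, with 6 higher in knockout. Averaged over the 20 genes, the arrays stood at 12.15, 12.04 and 12.13 in knockout and at 12.17, 12.11 and 12.09 in wild type. The groups overlapped, with a knockout array at the bottom and a wild-type array at the top.

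The subunits that carry cofactors and electrons showed small differences on both sides of 0. Ndufs1, the largest iron-sulfur subunit, differed by -0.0094, Ndufs7 by -0.044, Ndufs8 by 0.045, Ndufv1, which binds NADH and FMN, by -0.028 and Ndufv2 by -0.024. Ndufs8 was at 12.17, 12.13 and 12.26 in knockout and at 12.16, 12.18 and 12.10 in wild type, with a 95% interval of -0.12 to 0.21. Knockout replicate 3 was the highest of these arrays and wild-type replicate 3 the lowest. Ndufs7, which binds the iron-sulfur cluster nearest to ubiquinone, had the widest range over the 6 arrays of all 36 genes (0.35). It read 12.02, 11.70 and 11.87 in knockout and 12.05, 11.79 and 11.89 in wild type, so replicate 1 was the highest and replicate 2 the lowest in both groups. Ndufs3, another core subunit, differed by -0.031.

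Ndufs4, an accessory subunit whose loss causes mitochondrial disease in people and in mice, was at 11.04, 10.84 and 10.89 in knockout and at 11.10, 10.91 and 10.98 in wild type. The difference was -0.075 with a 95% interval of -0.27 to 0.12. Knockout was lower in all 3 same-numbered pairs, as for 13.2% of all genes, and replicate 1 was the highest array of both groups. Ndufa9, at the joint of the membrane and matrix arms, was at 12.04, 11.93 and 11.98 in knockout and at 12.10, 12.03 and 11.99 in wild type (difference -0.057, interval -0.22 to 0.10). Ndufa10 was at 12.28, 12.03 and 12.05 in knockout and at 12.29, 12.18 and 12.14 in wild type (difference -0.086, interval -0.29 to 0.12). In both genes the groups overlapped through knockout replicate 1.

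Subunits of the membrane arm included the complex I gene with the smallest p. Ndufb3 was at 11.04, 10.99 and 11.12 in knockout and at 11.22, 11.09 and 11.09 in wild type, a difference of -0.083 with an interval of -0.25 to 0.08. Knockout replicate 3 lay above 2 of the wild-type arrays. Ndufb9 was at 12.92, 12.82 and 12.91 in knockout and at 12.90, 12.95 and 12.92 in wild type (difference -0.044, interval -0.20 to 0.11), with knockout replicate 2 apart from the other 5 arrays. Ndufb5 differed by -5.6e-04, Ndufb8 by -0.030 and Ndufb10 by 0.048. Ndufab1, the mitochondrial acyl carrier protein that is also a complex I subunit, differed by 0.029.

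The remaining accessory genes were Ndufa2 (-0.010), Ndufa5 (0.018) and Ndufa8 (-0.014), together with Ndufa1 and Ndufa4. Ndufa1 lies on the X chromosome and encodes a small membrane subunit needed for assembly. It was at 13.23, 13.23 and 13.29 in knockout and at 13.19, 13.25 and 13.19 in wild type, a difference of 0.038 with an interval of -0.11 to 0.19. It spanned 0.10 over the 6 arrays, from wild-type replicate 3, with high Xist, to knockout replicate 3, with low Xist. The low-Xist arrays, knockout replicates 1 and 3, were at 13.23 and 13.29, and the high-Xist ones lay between 13.19 and 13.25. Ndufa4 was long counted with complex I and was later assigned to cytochrome c oxidase. It was at 12.73, 12.84 and 12.90 in knockout and at 12.74, 12.84 and 12.81 in wild type, a difference of 0.026 with an interval of -0.14 to 0.19. Unlike Ndufs7, Ndufa4 had its lowest value of each group in replicate 1.

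Complex II, succinate dehydrogenase, is also an enzyme of the citric acid cycle, and its 4 genes split evenly, with 2 higher in knockout and a median difference of 0.0021. Averaged over the 4 genes, the arrays stood at 12.01, 11.94 and 12.02 in knockout and at 11.97, 12.00 and 11.98 in wild type. Sdha, the flavoprotein that oxidises succinate, was at 12.38, 12.25 and 12.37 in knockout and at 12.20, 12.30 and 12.30 in wild type. The difference was 0.067 with an interval of -0.10 to 0.23, the largest positive one of the 36. Both knockout replicates 1 and 3 lay above every wild-type array, and knockout replicate 2 lay among them. Sdhd, a membrane anchor, was at 11.82, 11.80 and 11.86 in knockout and at 11.83, 11.90 and 11.86 in wild type (difference -0.037, interval -0.19 to 0.11). Sdhb, the iron-sulfur subunit, differed by -0.0070, and Sdhc, the other anchor, by 0.011.

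NRF1, a transcription factor of many nuclear respiratory genes, binds a palindromic motif, and the promoters of Sdha and Sdhd are printed because both hold it and both genes have values in every array above. The windows are the 250 bases before the annotated transcription start in RefSeq's GRCm38.p6 annotation, 5′ to 3′ on the gene's strand, with matches to the motif GCGCANGCG on either strand in capitals. The Sdha window lies on the minus strand at chr13:74350241-74350490 and that of Sdhd on the minus strand at chr9:50603850-50604099.
Sdha: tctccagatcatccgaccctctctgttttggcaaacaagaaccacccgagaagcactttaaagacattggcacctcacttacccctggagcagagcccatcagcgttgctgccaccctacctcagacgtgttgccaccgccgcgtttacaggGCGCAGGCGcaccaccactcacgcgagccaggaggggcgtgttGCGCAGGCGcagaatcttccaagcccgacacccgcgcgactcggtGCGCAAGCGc
Sdhd: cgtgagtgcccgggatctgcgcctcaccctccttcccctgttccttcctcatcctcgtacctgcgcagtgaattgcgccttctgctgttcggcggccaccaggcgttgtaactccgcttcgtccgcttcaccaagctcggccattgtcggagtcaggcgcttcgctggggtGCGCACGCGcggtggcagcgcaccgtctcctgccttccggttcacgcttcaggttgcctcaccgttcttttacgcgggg
Sdha held 3 matches, which begin between 98 and 10 bases before the start, and Sdhd held 1, which begins 79 bases before it. Promoter windows were found for 27 of the 36 genes, and 5 of these (18.5%) held the motif, against 5.86% of 27025 genes with a window. The 5 were Ndufa5, Ndufa8, Sdha, Sdhd and Atp5c1, with differences of 0.018, -0.014, 0.067, -0.037 and 0.0074. The GABP motif CCGGAAG was found in 3 of 27 (11.1%, against 7.83% of all genes with a window), in Ndufs3, Sdhd and Uqcrh. In Sdhd it did not overlap the NRF1 match. The estrogen-related receptor motif TCAAGGTCA and the YY1 motif AAGATGG were found in 0 of 27, against 0.422% and 5.18% of all genes with a window. These are matches of letters in one window per annotated start, and binding in these hearts was not measured.

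Complex III, the cytochrome bc1 complex, had the lowest median difference of the 4 complexes, -0.040, with 2 of 7 genes higher in knockout. Averaged over the 7 genes, the arrays stood at 12.81, 12.75 and 12.81 in knockout and at 12.85, 12.82 and 12.79 in wild type, and the groups overlapped. The core protein genes lay lowest. Uqcrc1 was at 12.51, 12.34 and 12.38 in knockout and at 12.53, 12.53 and 12.47 in wild type, a difference of -0.099 with an interval of -0.26 to 0.07. Knockout replicate 1 lay above wild-type replicate 3, and the other knockout arrays lay below all 3 wild-type arrays. Uqcrc2 was at 12.77, 12.61 and 12.71 in knockout and at 12.86, 12.74 and 12.71 in wild type (difference -0.076, interval -0.25 to 0.10). Both core genes were lower in knockout in all 3 same-numbered pairs, as were 13.2% of all genes. The smallest of these differences were -0.020 for Uqcrc1, in pair 1, and -0.0020 for Uqcrc2, in pair 3.

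Uqcrq, a small subunit of complex III, was at 12.36, 12.35 and 12.43 in knockout and at 12.47, 12.42 and 12.42 in wild type (difference -0.057, interval -0.21 to 0.10). Of the catalytic subunits, Uqcrfs1, the Rieske iron-sulfur protein, differed by -0.040 and Cyc1, cytochrome c1, by 0.019. Uqcrb, which lies near the ubiquinone site, differed by -0.0049 and had the narrowest range over the 6 arrays of the 36 genes (0.069). Uqcrh, the hinge protein, differed by 0.022.

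Complex V showed the smallest differences, between -0.016 and 0.018 over its 5 genes, with 3 higher in knockout and a median of 0.0074. Averaged over the 5 genes, the arrays stood at 13.29, 13.23 and 13.29 in knockout and at 13.25, 13.29 and 13.26 in wild type. Atp5b, the catalytic beta subunit of the F1 head, was at 13.52, 13.58 and 13.63 in knockout and at 13.51, 13.60 and 13.55 in wild type (difference 0.018, interval -0.14 to 0.18). Atp5d, the delta subunit of the central stalk, was at 12.95, 12.98 and 12.99 in knockout and at 12.93, 13.00 and 12.94 in wild type (difference 0.018, interval -0.13 to 0.17). Atp5o, which joins the head to the peripheral stalk, was at 13.22, 13.17 and 13.26 in knockout and at 13.22, 13.26 and 13.22 in wild type (difference -0.016, interval -0.17 to 0.13). In each of these genes the values of the groups were interleaved. Atp5a1, the alpha subunit of the head, differed by -0.012. Atp5c1, the gamma subunit that turns inside the head, differed by 0.0074 although its arrays spread further, at 13.51, 13.22 and 13.29 in knockout and at 13.37, 13.29 and 13.33 in wild type.

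Over complex I, animals of 1 genotype differed by more than the genotypes did, with array means of 12.11 ± 0.06 in knockout and 12.12 ± 0.04 in wild type (SD, n = 3 each). Over complex III the means were 12.79 ± 0.03 and 12.82 ± 0.03. There the mean difference of -0.034 was about as large as the SDs, 0.035 in knockout and 0.032 in wild type. Knockout replicate 2 held the lowest of the 6 values in 22 of the 36 genes (61.1%), whereas it held the lowest value of 22.7% of all genes. Its mean deviation from the 6-array mean was -0.076 over complex I, -0.043 over complex II, -0.057 over complex III and -0.034 over complex V. Wild-type replicate 1 held the highest value in 15 of the 36, whereas it held the highest value of 16.6% of all genes. Its mean deviation was 0.055 over complex I, -0.021 over complex II, 0.047 over complex III and -0.014 over complex V.

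**Figure D3:**
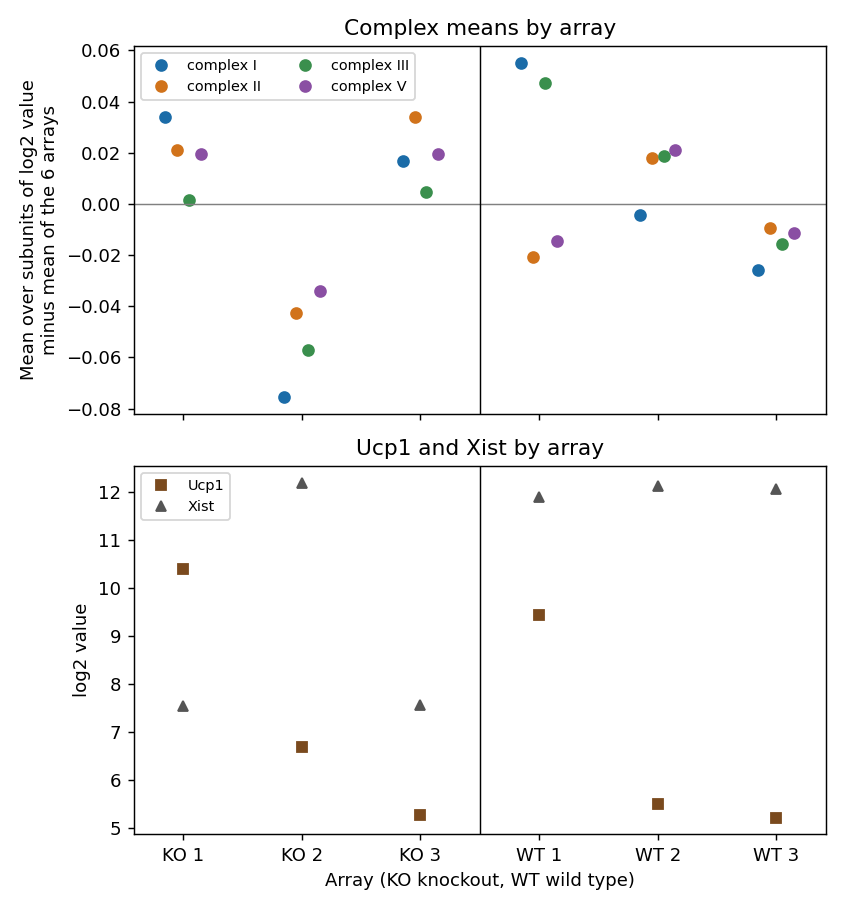
Upper panel: mean over the subunits of each complex of the log2 value minus the gene's 6-array mean, by array, knockout left of the line and wild type right of it. Lower panel: log2 values of Ucp1 and Xist in the same arrays. All 4 complexes are lowest in knockout replicate 2, the 1 knockout array with high Xist.

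The number of genes higher in knockout depended on knockout replicate 2, while the median difference stayed near 0 with or without it. Within same-numbered arrays, knockout was lower for 25 of 36 genes in pair 1, for 33 in pair 2 and for 9 in pair 3, with median differences of -0.014, -0.073 and 0.036. Over all genes 48.4%, 48.4% and 50.2% were lower in these pairs. Of the 36 genes, 6 were lower in knockout in all 3 pairs, against 13.2% of all genes, and 0 were higher in all 3, against 15.2%. The 6 were Ndufa9, Ndufa10, Ndufs4, Ndufs7, Uqcrc1 and Uqcrc2. Without knockout replicate 2, 23 of 36 genes were higher in knockout and the median difference was 0.012, and without knockout replicate 3, 8 were higher with a median of -0.020. Both medians lay within the array SD of 0.039 of the median over all 6 arrays. Complex III kept a median below 0 without knockout replicate 2 (-0.011).

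**Figure D4:**
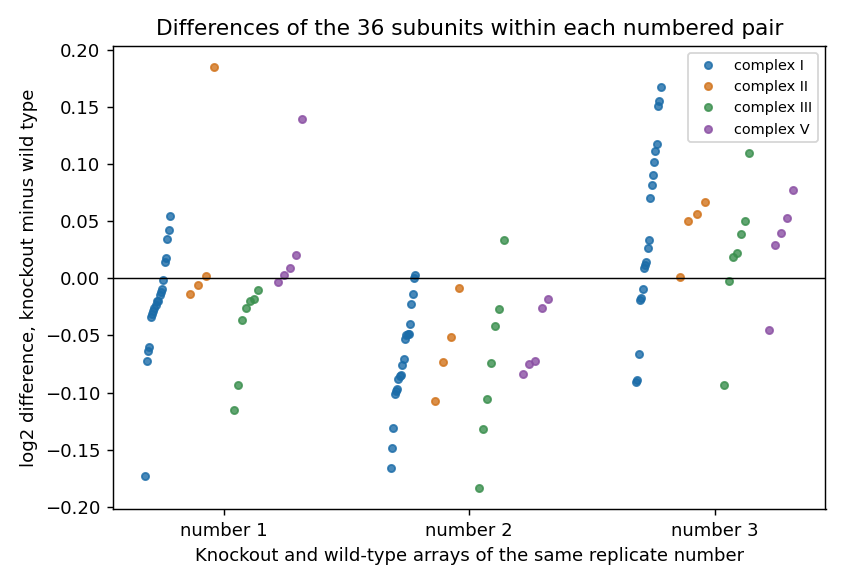
Log2 difference, knockout minus wild type, of each of the 36 subunit genes (points, coloured by complex) between arrays of the same replicate number (x axis). In pair 2 the points lie below 0 for 33 genes, and in pair 3 they lie below 0 for 9.

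The mean deviation over the 36 genes was 0.024 and 0.017 in the low-Xist arrays, knockout replicates 1 and 3. It was -0.063 in knockout replicate 2 and 0.036, 0.0061 and -0.020 in wild type, the high-Xist arrays, which held both the lowest and the highest value. Knockout replicate 2 was the knockout array with high Xist, like all 3 wild-type arrays. Set against the wild-type arrays on its own, it gave a median difference of -0.075 with 8 of 36 genes higher, and with the Xist level as a covariate the median was -0.071 with 8 higher. The lowest adjusted p of a subunit gene was 0.395 in the high-Xist comparison, in which the lone knockout array is taken to vary like the others, and 0.632 with the covariate. With 1 such knockout animal, sex, animal and genotype cannot be told apart in these values.

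Some subunits were higher in replicate 1 of both groups, as were some brown fat markers. Over all genes, deviations of replicate 1 from its group mean correlated at 0.54 between knockout and wild type. In 6 genes replicate 1 stood more than 0.1 above the mean of replicates 2 and 3 in both groups, and in 0 it stood more than 0.1 below in both. The share of all genes with either pattern was not computed, so these counts do not set the subunits apart from other genes. The 6 were Ndufs7 (by 0.23 in knockout and 0.21 in wild type), Ndufa10 (0.24 and 0.14), Ndufs4 (0.18 and 0.16), Ndufa2 (0.15 and 0.17), Sdhb (0.15 and 0.13) and Uqcrc2 (0.11 and 0.14). The mean level of 9 measured brown fat markers, of 10 listed, was 8.75 in knockout replicate 1 and 7.72 and 7.62 in the others, against 8.48 in wild-type replicate 1 and 7.61 and 7.59 in the others. That mean was carried by a few genes: 4 of the 9 (Ucp1, Cidea, Adipoq and Cidec) were highest in replicate 1 of both groups. Adipoq was at 7.32, 3.82 and 3.74 in knockout and at 6.85, 3.68 and 3.86 in wild type. Ppargc1a was lowest in replicate 1 of both groups, at 8.46, 8.82 and 8.73 in knockout and at 8.47, 8.93 and 8.79 in wild type. Fabp4 lay between 12.62 and 12.77 in knockout and between 12.72 and 12.77 in wild type, and Cox8b between 12.67 and 12.83 in knockout and between 12.71 and 12.75 in wild type. The part of brown fat in the subunit values was not tested. With replicates 2 and 3 of both groups, 14 of 36 genes were higher in knockout, the median was -0.022 and 0 passed.

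The 36 genes were covered by 75 probe sets that name them alone, and 22 genes had more than 1. Of the 75, 0 passed and 0 had an unadjusted p under 0.05 in a fit over 45037 probe sets. The 39 dimmer probe sets differed by -0.21 to 0.074, and 10 of them, in 7 genes, went the opposite way to the brightest. The lowest belonged to Atp5a1, singled out after its values were seen. It was at 10.39, 9.28 and 9.39 in knockout and at 10.42, 9.28 and 9.99 in wild type, while the brightest Atp5a1 probe set stayed between 13.22 and 13.29. A Ndufab1 probe set, singled out in the same way, was at 11.76, 10.91 and 11.02 in knockout and at 11.69, 11.05 and 11.31 in wild type, against 12.65 to 12.80 for the brightest. Both were highest in replicate 1 of each group. Of the 4 Ndufs4 probe sets, all were lower in knockout, by -0.075, -0.10, -0.20 and -0.047 from the brightest to the dimmest. Those at -0.20 and -0.047 had means of only 5.96 and 3.79, where signal near the floor of the arrays limits them. The 4 Sdha probe sets differed by 0.067, 0.018, -0.066 and -0.0062 from the brightest to the dimmest. The dimmest had means of 6.10 and 4.26. With the mean of probe sets, Sdha differed by 0.0031 and Ndufs8 by 0.0012.

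No gene of the other lists for complexes I, III and V or their assembly passed either. Of 15 measured further complex I subunits 5 were higher in knockout (median -0.0069), of 2 complex III subunits 1 (0.024) and of 13 complex V genes 5 (-0.024), and 0 passed with or without the block. The genes with the smallest p were Ndufb7 (-0.054), Ndufb11 (-0.056), Ndufb4 (-0.077), Uqcr10 (0.056), Atp5pb (-0.086), Atp5g1 (-0.070) and the ATP synthase inhibitor Atpif1 (0.092). Of 27 assembly factors 11 were higher (median -0.021) and 0 passed. Ndufaf3, an assembly factor of complex I, was at 8.64, 8.58 and 8.68 in knockout and at 8.55, 8.48 and 8.50 in wild type. The groups did not overlap, and the difference of 0.13 had an adjusted p of 1.00 with limma. Ndufaf2 differed by -0.10 and Atpaf1 by -0.094.

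Of 14 measured genes for ubiquinone synthesis and other electron carriers, 6 were higher in knockout (median -0.024), and 0 passed. Coq3, a methyltransferase of ubiquinone synthesis, was at 8.50, 8.48 and 8.49 in knockout and at 8.75, 8.67 and 8.57 in wild type (difference -0.17, limma adjusted p = 1.00). Coq5 differed by -0.18 and Etfdh, which feeds electrons from fatty acid oxidation to ubiquinone, by -0.11. In the citric acid cycle, 6 of 12 measured genes were higher (median -0.012), with Sucla2 at -0.12, Mdh2 at -0.087 and Suclg2 at 0.099. Of 16 regulators of mitochondrial biogenesis 10 were higher (median 0.034), and 0 passed. Ppargc1b, a coactivator, was at 10.05, 10.09 and 9.97 in knockout and at 9.84, 9.90 and 9.90 in wild type. Tfam, which packages and transcribes mitochondrial DNA, was at 8.19, 8.33 and 8.28 in knockout and at 8.47, 8.40 and 8.37 in wild type. Their differences of 0.16 and -0.15 had groups that did not overlap and limma adjusted p-values of 1.00. Tfb1m, a methyltransferase of mitochondrial ribosomal RNA, differed by -0.16.

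Cytochrome c oxidase, complex IV, lies downstream of complex III, and its genes Cox8a and Cox6a1 differed by 0.54 and 0.51, outside the range of the 36 subunit genes. Cox8a was at 11.76, 11.82 and 11.81 in knockout and at 11.26, 11.30 and 11.23 in wild type, and passed with the replicate number as a block (limma adjusted p = 0.0444) but not without it (0.334). Cox6a1 passed in neither fit (limma adjusted p = 0.0586 with the block and 0.373 without). Of 15 measured genes of complex IV 10 were higher (median 0.029), where 50.2% of all genes were. Cox6b2 differed by 0.29, and the lowest difference of the 15 was -0.22. In 5 genes all knockout arrays lay above all wild-type arrays (4.57% of all genes), and in 1 all lay below (4.28%).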

How the data were processed

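Per the labels' protocols, Trizol-extracted heart RNA was amplified in a single round and biotin-labelled. The deposited log2 values were made by the authors with RMA in the affy package, per the series' design text; GCOS 1.4 is named in the submitters' processing notes. Upstream versions of R and affy: not given in the sources used here. RMA corrects background, forces the arrays to 1 distribution, which hides a shift shared by most genes, and summarises each probe set. Arrays carry no read depth. No array copied another (0 identical pairs, lowest correlation 0.991).

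Of 45101 probe sets, 64 controls were left out. Of the rest, 34945 named 1 gene in the platform annotation, 932 several and 9160 none, and symbols were updated by gene identifier through RefSeq's GRCm38.p6 table. A gene was read from its brightest probe set that names it alone. All 36 members were found, and 1 probe set that also names another gene was left out.

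Knockout and wild-type arrays were compared by the moderated test of limma 3.58.1 (R 4.3.3) without a block, and p-values were adjusted over 18193 genes by Benjamini-Hochberg, with a threshold of 0.05. The code was tested on simulated data. Replicate numbers are shared by the titles of both groups with no word on litter or day. Deviations from group means correlated at 0.54, 0.18 and 0.13 between arrays numbered 1, 2 and 3, above the limit of 0.1 for treating them as pairs. Crossed arrays 2 and 3 correlated at 0.30 and 0.35, so that limit is weak evidence for pairs 2 and 3.

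The members and lists were chosen with earlier results of these data known. Every member is named. Values in every array were given for the members with the smallest unadjusted p (6 of complex I, 2 of complex II, 3 each of complexes III and V) and for Ndufa4, Ndufa1, Ndufs4 and Sdha. Ndufs7 and Atp5c1 were added after their values were seen. Up to 3 genes of smallest p were named from each other list. Alternatives were the replicate block, a further quantile normalization, a minimum mean of 6, the mean of probe sets, trend and robust variance, the Xist level as a covariate and leaving out each array. The fits on replicates 2 and 3 and on the high-Xist arrays were added after seeing the data.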

Additional observations from a re-analysis of the deposited data

How the results depend on the processing

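In each of the 14 alternatives 0 of the 36 genes passed, and the smallest adjusted p of a gene with values in every array was 0.289, for Uqcrc1 without knockout replicate 1. For the 16 genes with values in every array, without the later additions Ndufs7 and Atp5c1, 214 of 224 values under the alternatives kept their direction. The direction changed for Atp5b with a further quantile normalization (-0.0038), for Ndufs8 and Sdha under the Xist covariate (-0.0085 and -0.012) and in the high-Xist arrays (-0.012 and -0.020). Leaving out each array gave -0.010 to 0.047 for Atp5b, -0.036 to 0.0054 for Atp5o and -0.012 to 0.072 for Ndufa4. The cause was not tested.

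The number of the 36 genes higher in knockout was 13 in the comparison without a block and with the replicate block, 8 with the Xist covariate, 8 in the high-Xist arrays, and 8 to 23 when each array was left out, the highest without knockout replicate 2 and the lowest without knockout replicate 3. The median difference was -0.071 over all 36 genes, -0.087 over complex I, -0.038 over complex II, -0.089 over complex III and -0.038 over complex V with the Xist covariate. In the high-Xist arrays these were -0.075, -0.090, -0.043, -0.089 and -0.040. With replicates 2 and 3 only, the median of complex V was -0.022. Over all genes, 13 passed with the replicate block, 3 with the mean of probe sets, 1 with replicates 2 and 3 only, and 0 to 4 when each array was left out, against 0 without a block. The replicate block changed no call among the 36 genes. Signal near the floor of the arrays limits the 8 dimmer probe sets with a mean under 6.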
